A study of Mus musculus with 8 samples.

Results

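The comparison is between arrays of Ind-8 cells and arrays of tI-3 cells, picked by the cell line in the sample labels, and it sets 5 of the 8 arrays of the series against each other. Ind-8 is a cloned line of p53-null mouse fibroblasts carrying a p53 cDNA under a metallothionein promoter switched on by zinc, and its self-renewal is labelled asymmetric (3 arrays). tI-3 was made from Ind-8 by adding an IMPDH II transgene, and its self-renewal is labelled symmetric although p53 is restored in it as well (2 arrays). All cells were grown for 48 h with 65 µM ZnCl2 and 5 µg/ml puromycin, and tI-3 also in G418, for which the labels and the methods give the dose in different units. The other 3 arrays are of Con-3, a vector control without the p53 cDNA that the labels call the congenic parent. Their values are given beside the others as levels, and they enter the estimate of the variance behind each SE and adjusted p. Since 1 cloned line stands for each state, effects of the state and of the line cannot be told apart.

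Ind-8 and tI-3 differed in genes of contractile, matrix-forming fibroblasts, in p53 target genes, in genes of cholesterol synthesis and in genes of mitosis, among others. The smooth muscle actin Actg2 was higher in Ind-8 by 4.95 on the log2 scale, calponin (Cnn1) by 3.70 and the p53 target Cdkn1a by 2.22. In the other direction, the membrane protein Tmem176b was lower in Ind-8 by a log2 change of -4.87, and 27 of 37 measured mitosis genes fell (73.0%, against 14.8% of all profiles), with a median of -0.50 over the list. Genes of cholesterol and fatty acid synthesis rose in Ind-8 in 20 of 28 cases (71.4%, against 15.9%), with a median of 0.60. In a fit with a block for the hybridization controls, 2 and 3 of these calls were left, and the medians were -0.43 and 0.59. IMPDH II oxidizes IMP to XMP, from which GMP is made. p53 is a transcription factor that switches on genes of cell cycle arrest, cell death and DNA repair.

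The array medians lay between 6.13 and 6.20 on all 8 arrays. The interquartile range was 4.17, 4.16 and 4.10 on the Ind-8 arrays and 3.82 and 3.72 on the tI-3 arrays, so the tI-3 values were spread less widely. The 18 hybridization controls detect transcripts that do not come from the cells and are added before hybridization. They averaged 9.95, 9.88 and 9.89 on the Ind-8 arrays, 10.24 and 10.46 on the tI-3 arrays and 9.94, 10.00 and 10.44 on the Con-3 arrays. They were higher on both tI-3 arrays than on any Ind-8 array, so their level moves with the line, and results are also given from a fit that takes it as a block. In that fit both tI-3 arrays and Con-3 replicate 3 form the high class, so its effect is estimated from the Con-3 arrays alone. This makes the fit less precise, so a call can be lost there without a smaller change. Con-3 replicate 3 also had a reading of 18S ribosomal RNA of 11.38, against 6.59 to 7.67 on the other arrays, where the tI-3 arrays (7.67 and 7.36) were the highest. The 3' minus 5' difference of the actin control was 0.06 and 0.07 on the tI-3 arrays and 0.14 to 0.19 on the Ind-8 arrays, while that of Gapdh overlapped (-0.21 and -0.21 against -0.11, -0.20 and -0.21). The part of these readings in the results was not tested. Correlations across profiles within a line were 0.994 to 0.996, and between Ind-8 and tI-3 0.979 to 0.984. Profiles are not independent replicates, and the number of arrays limits the precision.

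The transcripts that check the labels came first. Trp53 read 5.68, 5.87 and 5.80 in Ind-8, 5.60 and 5.69 in tI-3 and 5.21, 5.29 and 5.27 in Con-3. Ind-8 and tI-3 overlapped, the 5 arrays with the cDNA lay above the 3 without it, and the log2 change of 0.14 ± 0.10 (SE) did not pass limma's test (adjusted p 0.283). Impdh2 was bright on every array, at 12.16, 12.19 and 12.22 in Ind-8, 12.34 and 12.38 in tI-3 and 12.51, 12.56 and 12.53 in Con-3. The tI-3 arrays lay above the Ind-8 arrays without overlap, but the change of -0.17 ± 0.09 was not called (adjusted p 0.163) and Con-3, which has no transgene, was the highest. Whether the probes of Impdh2 detect the transgene is not stated. Impdh1, the other IMPDH gene, overlapped between the lines, at 8.09, 7.84 and 8.19 in Ind-8 and 8.05 and 8.15 in tI-3.

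The metallothionein genes, which zinc induces, were among the brightest. Mt1 read 13.95, 13.88 and 13.81 in Ind-8 and 13.77 and 13.47 in tI-3, against 13.72, 13.83 and 13.64 in Con-3 (change 0.25, adjusted p 0.119). After the arrays were quantile-normalized again the change of Mt1 was -0.06. Cdkn1a, the p53 target that inhibits cyclin-dependent kinases, read 9.70, 9.70 and 9.59 in Ind-8, 7.55 and 7.33 in tI-3 and 5.73, 5.81 and 6.03 in Con-3. The lines did not overlap, and Ind-8 exceeded tI-3 by 2.22 ± 0.12 (adjusted p 3.37e-06). Mdm2, the ubiquitin ligase of p53 and a p53 target, read 10.79, 11.19 and 10.71 in Ind-8, 9.67 and 9.56 in tI-3 and 9.02, 8.79 and 8.87 in Con-3. It rose in Ind-8 by 1.28 ± 0.14 (adjusted p 0.000253).

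Some markers of fibroblasts were high in both lines, and others were not. Vim was near the top of the scale, at 14.05, 14.08 and 14.01 in Ind-8 and 13.75 and 13.56 in tI-3 (change 0.39, adjusted p 0.0125). The call of Vim was lost without tI-3 replicate 2 and after quantile-normalizing again (change 0.11, adjusted p 0.365). It was also lost with the hybridization controls as a block, where the change was 0.43 (adjusted p 0.191). Col1a1 read 12.02, 12.33 and 12.66 in Ind-8 and 10.64 and 11.06 in tI-3, and Pdgfra rose by 1.51. Thy1, Lum and Fap lay near the dim end of the arrays in both lines. Of 11 fibroblast markers 4 rose and 1 fell. Over all profiles 15.9% rose and 14.8% fell, and the count of each marker list is to be read beside these shares. The epithelial marker Cdh1 was dim in both lines and Epcam lay near the dim end, though Krt19 read 10.09, 10.47 and 10.48 in Ind-8 and 9.32 and 9.30 in tI-3, and it was the 1 of 12 epithelial markers that rose. Among 8 leukocyte markers 4 fell and 0 rose (4 and 0 at an unadjusted p under 0.05 in limma). The falls of Csf1r, Adgre1, Tyrobp and Fcer1g were at most 0.61, each was lost with at least 1 array left out (adjusted p up to 0.166), and 1 was left without tI-3 replicate 1 or 2. All 4 are dim or moderately dim, levels at which falls outnumber rises over all profiles. Ptprc, which defines leukocytes, was dim, and the brightest of the list, Cd74, read 5.72, 5.97 and 6.30 in Ind-8 and 5.29 and 6.06 in tI-3. Of 8 endothelial markers Kdr fell by 0.76 and the others were not called. The adipocyte regulator Cebpa rose by 2.16, whereas Fabp4 fell by 1.38 (adjusted p 0.0595 without tI-3 replicate 1). Of 7 cartilage and bone markers Col2a1 rose and Acan fell (a call lost without any single Ind-8 array or tI-3 replicate 2, adjusted p up to 0.233), of 7 skeletal muscle markers 2 fell (Ckm and Tnnt3), and of 8 neural and glial markers 1 rose (Tubb3) and 2 fell (Sox10 and S100b). Each of these 5 calls was lost with at least 1 array left out, at an adjusted p up to 0.0506, 0.128, 0.205, 0.136 and 0.22. No pericyte, mesothelial or pluripotent marker was called. Of the marker calls named here, only those of Col1a1, Pdgfra, Cebpa and Col2a1 were kept with the hybridization controls as a block. In bulk samples, fewer cells of a type and less RNA per cell cannot be told apart.

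Across the 18172 distinct profiles, 2893 rose in Ind-8 (15.9%) and 2691 fell (14.8%) at an adjusted p under 0.05. At least 2-fold changes were fewer and less even, with 433 rises (2.38%) and 107 falls (0.589%). In 432 of the 433 and in all 107 the values of the lines did not overlap, which a call of this size nearly implies. With 3 and 2 arrays this also occurs without a call. It was seen for 5 of 12 epithelial markers, of which 1 was called, and for 0 of 5 pluripotent markers. Single-gene profiles gave 405 genes at least 2-fold higher and 80 at least 2-fold lower in Ind-8. Genes changed at least 4-fold numbered 36 and 10, and at least 8-fold 9 and 2. The smaller calls rested more on single arrays: without tI-3 replicate 2 there were 1458 rises and 887 falls, and without tI-3 replicate 1 there were 2177 and 1738. Without Ind-8 replicate 1 the falls numbered 1714 and without Ind-8 replicate 2 they numbered 1702. Of the 433 and 107 larger changes, 396 and 96 were still called without tI-3 replicate 2.

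The balance of directions varied with level. The median change was -0.06 over all profiles, but with the profiles split by level into 4 bins of like size it was -0.14 and -0.22 in the dimmer bins and 0.13 in each of the brighter ones. Falls made up 27.0% of the bin of moderately dim profiles, and rises 27.8% and 26.6% of the brighter bins. When the arrays were quantile-normalized again, the medians of the bins lay between -0.06 and -0.00, and the at least 2-fold counts were 366 and 160. In the fit with the hybridization controls as a block, 416 profiles rose and 167 fell in all. Of the 433 and 107 larger changes 240 and 72 were still called there, 217 and 70 of them at least 2-fold, and 432 and 107 had the same direction.

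**Figure D1:**
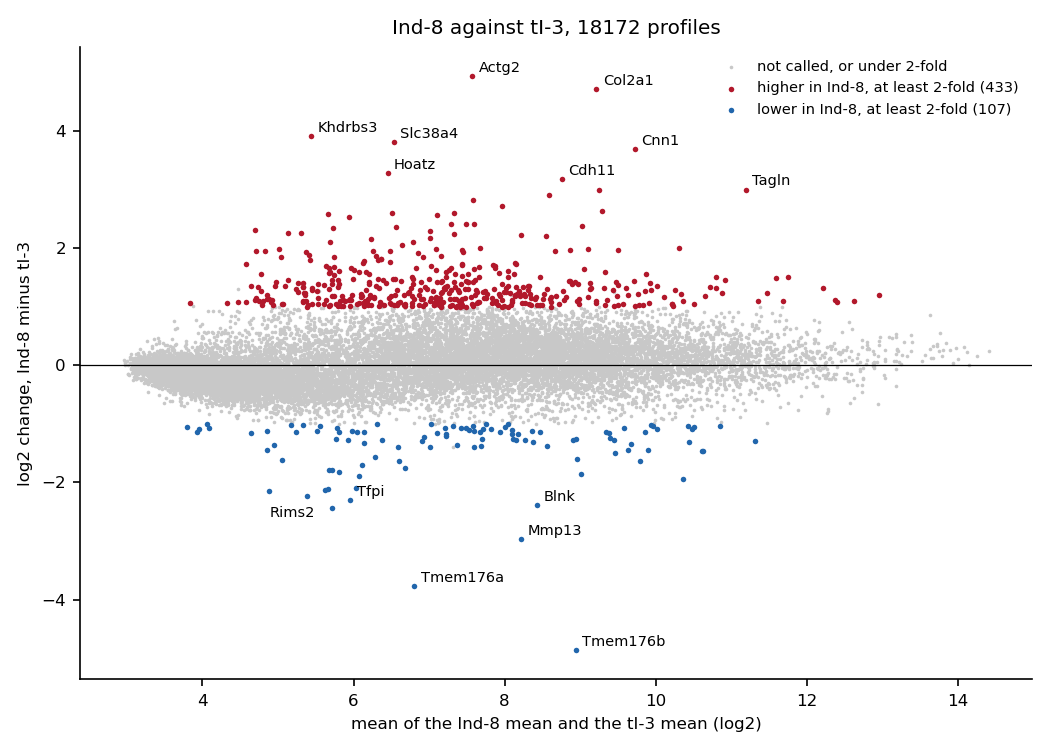
Log2 change of each profile (Ind-8 minus tI-3, vertical) against the mean of both lines' log2 values (horizontal), with the 433 at least 2-fold rises in red and the 107 falls in blue. Of the 433 rises 2 are in the dimmest of 4 bins of like size, with 6 falls, and in each of the others the rises outnumber the falls.

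The largest rise was that of Actg2, the enteric smooth muscle actin. It read 10.32, 9.63 and 10.19 in Ind-8, 5.19 and 5.00 in tI-3 and 9.85, 8.82 and 9.49 in Con-3. Both tI-3 arrays were low, without overlap, and the change was 4.95 ± 0.27 (adjusted p 3.84e-06). Col2a1, the collagen of cartilage, followed with 11.78, 11.19 and 11.76 in Ind-8 and 6.85 and 6.87 in tI-3. Its change was 4.72 ± 0.19 (adjusted p 6.72e-07), and Con-3 read 12.17, 11.62 and 11.93. Sox9, which drives cartilage genes, was not called. Slc38a4, an amino acid transporter, read 8.42, 8.44 and 8.46 in Ind-8, 4.85 and 4.41 in tI-3 and 9.34, 9.07 and 9.21 in Con-3. Among these, tI-3 was the line that stood apart, and so it was for the cadherin Cdh11, the anti-angiogenic protein Serpinf1, the secreted protein Igfbp7 and the kinase anchor Akap12, which rose by 3.19, 3.00, 2.91 and 2.73. Has2, a hyaluronan synthase, read 9.23, 8.38 and 8.29 in Ind-8, a mean of 6.02 in tI-3 and 9.16, 7.85 and 8.32 in Con-3. It rose by 2.61 ± 0.35, a call that was lost with the hybridization controls as a block (adjusted p 0.0669).

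Other large rises set Ind-8 apart from both other lines. The RNA-binding protein Khdrbs3 read 7.81, 6.95 and 7.44 in Ind-8, and both tI-3 arrays (3.47 and 3.48) and the Con-3 arrays (3.76, 3.68 and 3.85) were below the dim end of 4.29. Its change of 3.92 is therefore likely understated. Hoatz, a gene of motile cilia, read 7.84 to 8.45 on the Ind-8 arrays, 5.15 and 4.47 in tI-3 and at most 3.70 in Con-3. The ribosomal oxygenase Riox1 read 7.81, 7.97 and 7.66 in Ind-8, 5.21 and 5.20 in tI-3 and 5.22, 5.09 and 5.07 in Con-3. The sugar reductase Dcxr rose by 2.83, and Ltbp2, which binds microfibrils, by 2.63.

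**Figure D2:**
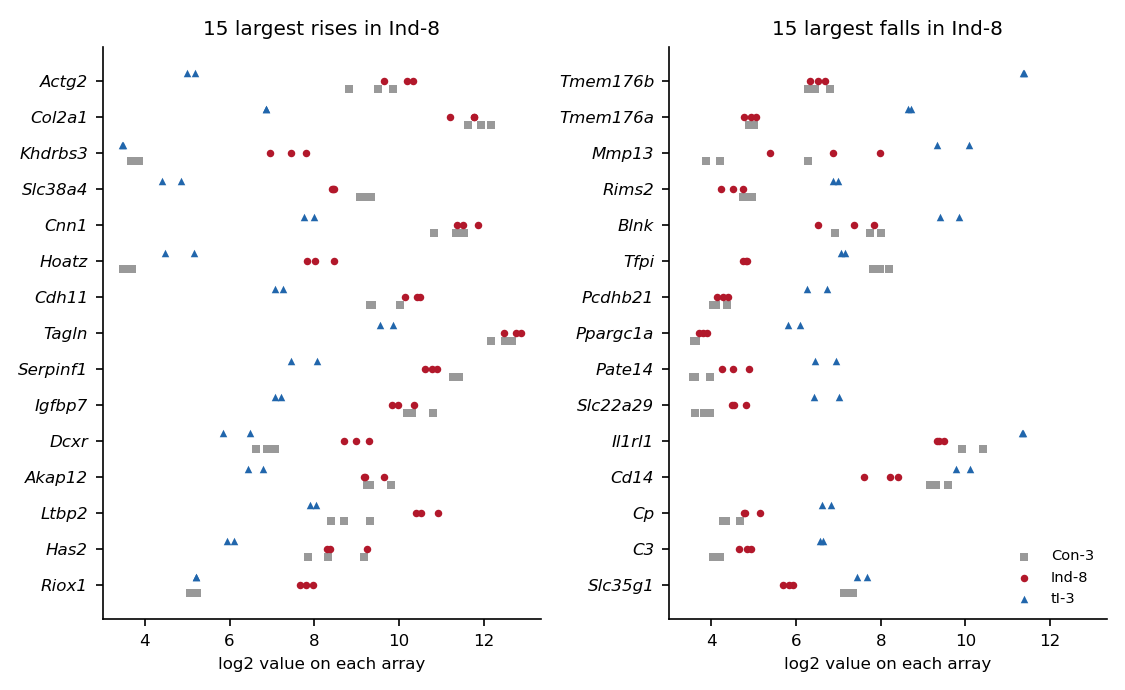
Log2 value on each array (horizontal) of 15 genes that rose most and 15 that fell most in Ind-8, with Ind-8 as circles, tI-3 as triangles and Con-3 as squares. Actg2 lies at 9.63 to 10.32 in Ind-8 and at 5.00 and 5.19 in tI-3.

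Among falls, the membrane proteins Tmem176b and Tmem176a led. Tmem176b read 6.33, 6.51 and 6.68 in Ind-8, 11.38 and 11.37 in tI-3 and 6.29, 6.45 and 6.81 in Con-3. tI-3 was high without overlap, and the change was -4.87 ± 0.15 (adjusted p 9.88e-08). Tmem176a read 4.94, 4.78 and 5.06 in Ind-8 and 8.73 and 8.65 in tI-3, a change of -3.76 ± 0.11 (adjusted p 6.1e-08). The collagenase Mmp13 varied widely within Ind-8 (7.97, 6.87 and 5.38) and was higher in tI-3 (10.08 and 9.32). Its change of -2.96 ± 0.76 (adjusted p 0.0157) was no longer called without tI-3 replicate 1 (0.097), without tI-3 replicate 2 (0.062) or with the hybridization controls as a block (0.0937, where the change was -4.32).

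Ppargc1a, a coactivator of mitochondrial genes, read 3.80, 3.89 and 3.70 in Ind-8 and 6.09 and 5.82 in tI-3, with Con-3 at 3.60, 3.65 and 3.65. Its change of -2.15 is likely understated, since Ind-8 was below the dim end. The synaptic protein Rims2, near the dim end in Ind-8 (mean 4.49), fell by 2.44. The B cell adaptor Blnk, at 7.37, 7.85 and 6.51 in Ind-8, fell by 2.38. Il1rl1, the receptor of interleukin 33, read 9.38, 9.49 and 9.32 in Ind-8 and 11.32 and 11.35 in tI-3. A separate profile of Il1rl1 fell by 1.45. Pate14, the transporter Slc22a29 and Slc35g1 fell by 2.14, 2.10 and 1.75.

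Of 34 measured p53 target genes, 25 rose in Ind-8, 13 of them at least 2-fold, and 1 fell. The median change was 0.81. Over all profiles it was -0.06, and 15.9% rose and 14.8% fell, which are the values beside which each list below is to be read. Eda2r, a receptor of the tumour necrosis factor family, read 7.60, 8.03 and 7.63 in Ind-8, 5.63 and 5.13 in tI-3 and 3.91, 4.08 and 4.07 in Con-3. It rose by 2.37 ± 0.17 (adjusted p 1.83e-05), and Con-3 was below the dim end. Ccng1, Phlda3 and Ak1 had the same order of lines, with means of 12.1, 10.9 and 10.7 in Ind-8 and 10.9, 9.7 and 9.5 in tI-3, and they rose by 1.24, 1.21 and 1.17. The antiproliferative gene Btg2 rose by 1.69 ± 0.27 (adjusted p 0.00173, and 0.0925 with the hybridization controls as a block).

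Targets that act in cell death were among those that rose: the death receptor Tnfrsf10b by 1.32, Apaf1 by 1.04, Bbc3 by 0.80 and Bax by 0.66. So were the stress-response gene Sesn1, by 0.85, and the DNA repair gene Ercc5, by 1.02. Trp53inp1 rose by 1.35, but not past the test without tI-3 replicate 2 (adjusted p 0.0838). Gadd45a, Pmaip1, Ddb2 and Xpc were among the 8 targets not called. Perp, the 1 target that fell, was below the dim end in Ind-8 (means of 3.7 and 4.4). After quantile-normalizing again its change was -0.55. Its call was lost with the hybridization controls as a block (change -0.94, adjusted p 0.0525). The fit with the hybridization controls as a block called 12 rises, of Cdkn1a, Mdm2, Eda2r and Bax among others but not of Bbc3, Sesn1 or Trp53inp1, and the rank product test 10.

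**Figure D3:**
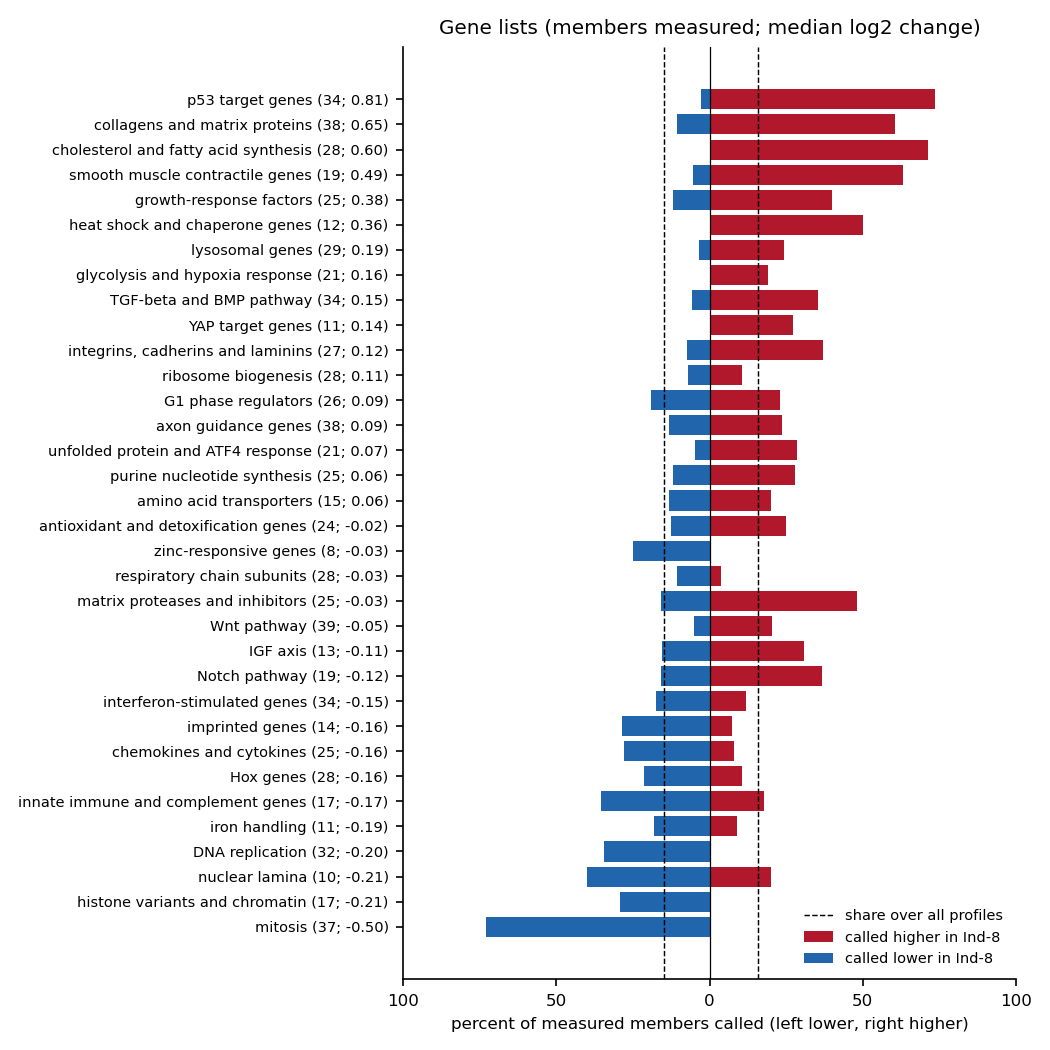
Percent of the measured members of each of the 34 gene lists that rose in Ind-8 (right) or fell (left), with dashed lines at the 15.9% and 14.8% of all profiles. The p53 targets, cholesterol genes, collagens and smooth muscle genes reach farthest right, and mitosis farthest left.

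Of 37 measured mitosis genes, 27 fell and 0 rose (31 and 0 at an unadjusted p under 0.05 in limma), and the median change was -0.50 (-0.62 after quantile-normalizing again). The kinesin Kif11 read 8.23, 8.17 and 8.31 in Ind-8, 9.23 and 9.04 in tI-3 and 9.14, 8.95 and 9.04 in Con-3. Ind-8 was low without overlap, and the change was -0.90 ± 0.11 (adjusted p 0.000288). Cenpf, a kinetochore protein, read 6.62, 6.50 and 6.69 in Ind-8 and 7.28 and 7.45 in tI-3. Cyclin A2 (Ccna2) fell by 0.69, survivin (Birc5) by 0.67, Aurka by 0.59 and Bub1 by 0.56. Cdk1, Top2a and Foxm1 were not called. Each change was under 2-fold, and 16 falls were called without tI-3 replicate 1. With the hybridization controls as a block only Kif11 and Cenpf were called, though the median was -0.43 and the change of Bub1 was -0.72. The rank product test called 0 of them.

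Of 32 measured DNA replication genes, 11 fell and 0 rose (14 and 0 at an unadjusted p under 0.05), with a median of -0.20 (-0.36 after quantile-normalizing again). The flap nuclease Fen1 read 10.21, 10.12 and 10.33 in Ind-8, 10.81 and 10.81 in tI-3 and at least 10.93 in Con-3, a change of -0.58 ± 0.10 (adjusted p 0.00197). Fen1 was not called with the hybridization controls as a block (0.0706), and neither was any other member. Cdc45, a subunit of the replicative helicase, fell by 0.48, whereas Mcm2, Rrm2 and Tk1 were not called. The falls numbered 3 without tI-3 replicate 1 and 5 without tI-3 replicate 2.

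Regulators of G1 phase were split, with 6 of 26 higher in Ind-8, 5 lower and a median of 0.09. Cdkn2a, the locus of p16 and Arf, read 8.48, 9.36 and 8.56 in Ind-8, 7.48 and 7.11 in tI-3 and 8.12, 8.16 and 8.04 in Con-3. It rose by 1.51 and its neighbour Cdkn2b by 1.05, and neither was called with the hybridization controls as a block (adjusted p 0.0949 and 0.11). The related inhibitor Cdkn2c fell by 0.74. Among retinoblastoma family genes Rbl2 rose by 0.81 and Rbl1 fell by 0.59. Rb1 rose too, by 0.55 to 1.06 over the alternatives, a call lost after quantile-normalizing again (adjusted p 0.0527). Ccnd1, Ccne1, Cdk4 and E2f1 were not called, and the block left no call in this list. Without tI-3 replicate 2 the rises numbered 3, and without Ind-8 replicate 1 or 2 the falls numbered 3.

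The promoters of these genes were read as the 250 bases before the transcript start in RefSeq of GRCm38.p6, on both strands. A CCAAT box (CCAAT or ATTGG) was present in 22 of the 31 mitosis genes that could be placed (71.0%) and in 37.5% of all 27025 genes of the promoter table, any of whose starts could hold it. The CHR element (TTTGAA or TTCAAA), a site of cell cycle repressor complexes, was present in 9 of 31 (29.0%) against 18.3%, and both motifs in 8 (25.8%) against 6.45%. A CCAAT box was present in 15 of 26 DNA replication genes (57.7%). It was also present in 10 of 15 smooth muscle genes (66.7%), not all of them called, from a list in which 12 of 19 rose and 1 fell. The promoter of Kif11 (chr19:37376132-37376381, plus strand) and that of Prc1 (chr7:80294226-80294475, plus strand), which fell by 0.59, hold both, marked by capitals. A match describes the sequence and shows no binding.
Kif11: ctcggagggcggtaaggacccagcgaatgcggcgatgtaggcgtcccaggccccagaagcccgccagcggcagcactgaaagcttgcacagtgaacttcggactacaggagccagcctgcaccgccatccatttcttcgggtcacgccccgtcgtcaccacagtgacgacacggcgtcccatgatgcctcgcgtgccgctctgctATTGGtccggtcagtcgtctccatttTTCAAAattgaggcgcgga
Prc1: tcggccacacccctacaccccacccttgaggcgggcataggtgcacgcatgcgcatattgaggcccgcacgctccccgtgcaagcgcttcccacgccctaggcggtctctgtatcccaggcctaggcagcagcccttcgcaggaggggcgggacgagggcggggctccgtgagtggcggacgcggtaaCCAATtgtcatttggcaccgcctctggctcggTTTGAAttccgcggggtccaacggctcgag

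**Figure D4:**
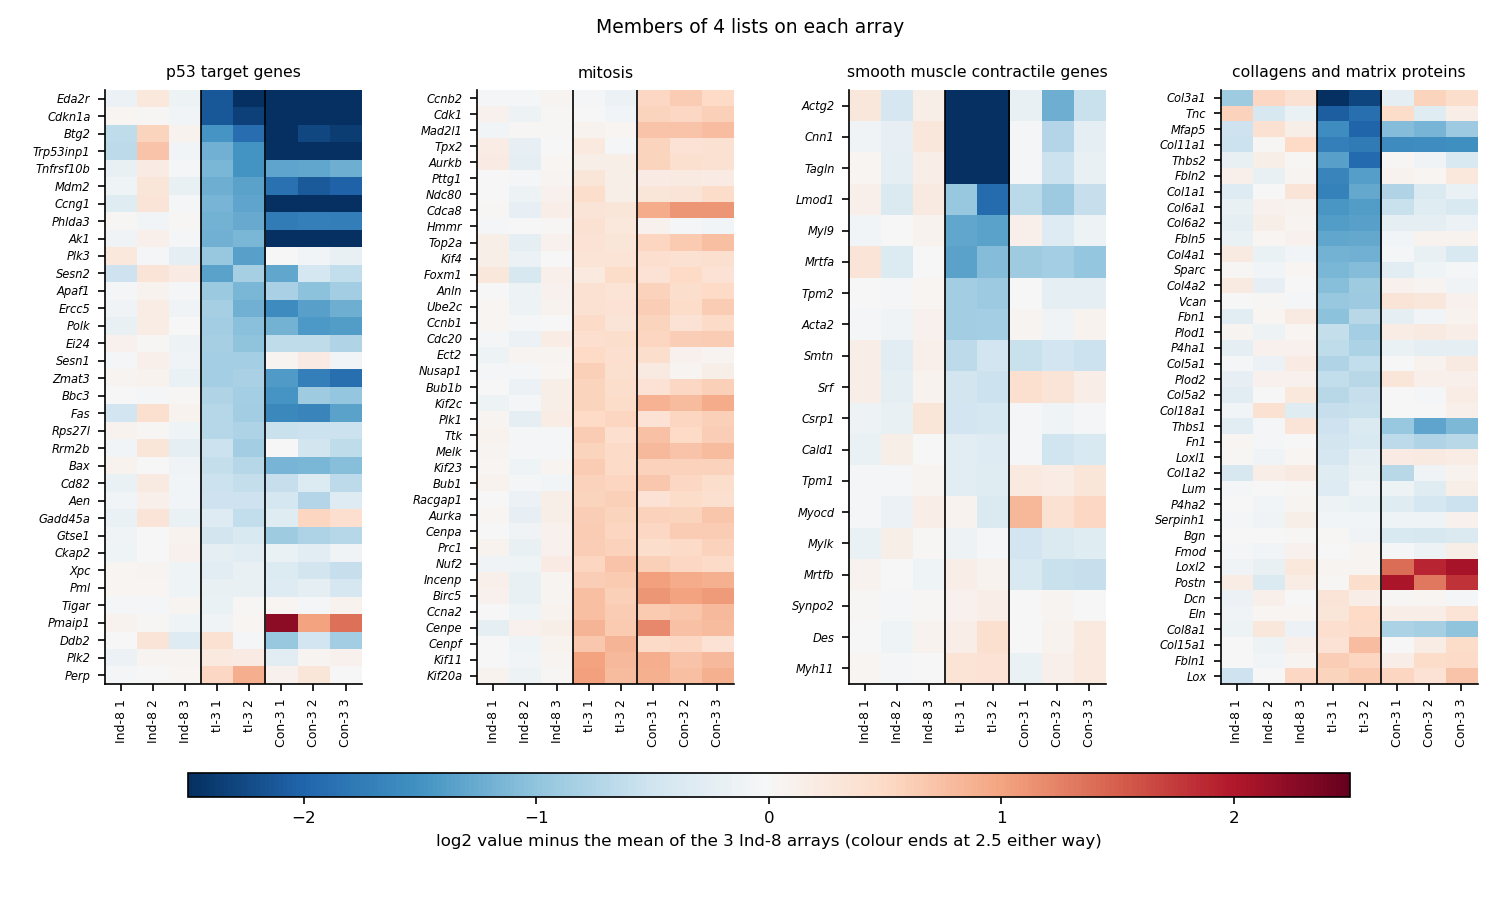
Log2 value on each array minus the Ind-8 mean for the measured p53 targets, mitosis genes, smooth muscle genes and collagens and other matrix proteins (1 line per gene, 1 column per array), with colours ending at 2.5 either way. Cdkn1a is lower in tI-3 and lowest in Con-3, whereas Kif11 is higher in both.

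Enzymes of purine nucleotides were split. Their list holds the synthesis pathway, that of the transgene, and also enzymes that reuse or degrade purines. Of 25 measured, 7 rose and 3 fell, with a median of 0.06 that turned to -0.04 after quantile-normalizing again. Xdh, which degrades purines to urate, read 5.42, 5.37 and 4.91 in Ind-8, 6.46 and 6.30 in tI-3 and 4.42, 4.86 and 4.61 in Con-3. It fell by 1.14 ± 0.17 (adjusted p 0.00115, and 0.068 with the hybridization controls as a block). Adenosine deaminase (Ada) read 8.11, 7.83 and 8.02 in Ind-8 and 7.16 and 7.14 in tI-3 and rose by 0.83. Gmps, the enzyme after IMPDH on the way to GMP, fell by 0.30, a call lost with any of 5 arrays left out (adjusted p up to 0.17), and Gart, Paics and Hprt were not called. The counts varied with the arrays and the fit. There were 1 rise and 1 fall without tI-3 replicate 2, 4 and 2 without tI-3 replicate 1, 4 and 4 after quantile-normalizing again and 6 and 1 on the 5 compared arrays only. Without Ind-8 replicates 1, 2 and 3 there were 5, 4 and 4 rises and 1, 1 and 3 falls. With the hybridization controls as a block there were 0 of either, and in the rank product test 0 rises and 1 fall.

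Contractile genes of smooth muscle and myofibroblasts rose in Ind-8 in 12 of 19 cases, 6 of them at least 2-fold, and the median change was 0.49 (0.35 after quantile-normalizing again). Cnn1 read 11.50, 11.37 and 11.86 in Ind-8, 7.76 and 7.98 in tI-3 and 11.54, 10.83 and 11.33 in Con-3. Tagln, an actin-bundling protein, read 12.76, 12.48 and 12.87 in Ind-8, 9.54 and 9.85 in tI-3 and 12.68, 12.16 and 12.51 in Con-3. In both, tI-3 was low without overlap, and the changes were 3.70 ± 0.20 and 3.01 ± 0.17 (adjusted p 3.84e-06 and 5.03e-06). Acta2, among the brightest transcripts, rose by 0.86, from a mean of 13.2 in tI-3 to 14.1 in Ind-8. The myosin light chain Myl9 rose by 1.32, the coactivator Mrtfa by 1.21 and its partner Srf by 0.49. The call of Srf was lost with any of 4 arrays left out (adjusted p up to 0.121).

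Myocd, Mylk and Des were not called. Myh11, dim in both lines, fell by 0.35. It was not called without any single Ind-8 or tI-3 array or Con-3 replicate 2 (adjusted p up to 0.196). With the hybridization controls as a block, 6 genes rose, namely Acta2, Actg2, Tagln, Cnn1, Myl9 and Tpm2. Of 11 genes in the list of YAP targets, which also holds the coactivators Yap1 and Wwtr1 and their partner Tead1, 3 rose and 0 fell (3 and 0 at an unadjusted p under 0.05 in limma), with a median of 0.14. Ccn2 read 13.65, 13.46 and 13.58 in Ind-8 and 12.36 and 12.37 in tI-3, and Ankrd1 and Ptpn14 rose by 0.90 and 0.72. Ccn1, another much-used YAP target, was not called. With the hybridization controls as a block only Ptpn14 rose.

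The CArG box, the site of the SRF protein, was found in the promoters of 2 of 15 smooth muscle genes placed in RefSeq GRCm38.p6 (13.3%) and in 1.62% of all genes within 250 bases before a start. It was also found in 2 of 11 imprinted genes (18.2%), 3 of 25 Wnt genes and 2 of 22 purine genes (9.09%). The smooth muscle genes were Myl9 (chr2:156775214-156775463, plus strand) with 1 match and Srf (chr17:46556163-46556412, minus strand) with 2, which capitals mark.
Myl9: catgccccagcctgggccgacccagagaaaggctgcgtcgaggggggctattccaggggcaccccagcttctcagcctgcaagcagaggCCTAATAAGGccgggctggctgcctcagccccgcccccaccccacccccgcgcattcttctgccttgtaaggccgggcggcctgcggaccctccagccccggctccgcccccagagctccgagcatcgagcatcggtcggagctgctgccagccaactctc
Srf: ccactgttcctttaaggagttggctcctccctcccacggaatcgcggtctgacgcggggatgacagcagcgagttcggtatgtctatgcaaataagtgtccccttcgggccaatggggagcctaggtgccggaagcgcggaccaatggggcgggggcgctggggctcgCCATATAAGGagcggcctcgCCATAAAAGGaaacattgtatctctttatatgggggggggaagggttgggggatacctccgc

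Collagens and other matrix proteins rose in Ind-8 in 23 of 38 cases, 12 of them at least 2-fold, by a median of 0.65 (0.52 after quantile-normalizing again). Col3a1 read 7.91, 9.32 and 9.18 in Ind-8, 6.26 and 6.51 in tI-3 and 8.59, 9.37 and 9.25 in Con-3. It rose by 2.42 ± 0.37 (adjusted p 0.00121, and 0.0546 with the hybridization controls as a block). Col1a1 rose by 1.49 ± 0.21 (adjusted p 0.000846), the microfibril protein Mfap5 by 1.77, tenascin C (Tnc) by 1.98 and Sparc by 1.11. The basement membrane collagens Col4a1 and Col4a2 rose by 1.19 and 0.98, and the hydroxylases Plod1, Plod2 and P4ha1 by 0.73, 0.65 and 0.71.

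Not every matrix gene moved this way. Col1a2, Dcn, Postn and Lox were not called, and Fbln1 fell by 0.57. Col15a1, Col8a1 and Eln fell too but lost their calls without 2 or more of the arrays (adjusted p up to 0.21, 0.157 and 0.165). The falls numbered 1 without Ind-8 replicate 1, 1 without tI-3 replicate 2 and 2 after quantile-normalizing again. Of the matrix genes 10 rose and 0 fell with the hybridization controls as a block, and Tnc, Col4a1, Col4a2, Plod1, Plod2 and P4ha1 were not among them. Col11a1 read 4.91, 5.48 and 5.94 in Ind-8 but 3.73 and 3.68 in tI-3 and 3.86, 3.90 and 3.90 in Con-3, below the dim end, so its rise of 1.74 is likely understated.

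Among 25 matrix proteases and inhibitors, 12 rose and 4 fell, with a median of -0.03. The inhibitor Timp1 read 11.64, 11.44 and 11.40 in Ind-8 and 10.34 and 10.16 in tI-3, a rise of 1.24 ± 0.11 (adjusted p 6.39e-05). The plasminogen activator Plau rose by 0.79, and the gelatinase Mmp2 rose by 0.85. Stromelysin 1 (Mmp3) fell by 1.40, as Mmp13 did, and was not called with the hybridization controls as a block (adjusted p 0.0975). Without tI-3 replicate 1 or 2, 6 rose and 2 fell in the protease list, and with the block 2 and 1, with Timp1 and Mmp2 as the rises.

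Of 27 integrins, cadherins and laminins, 10 rose and 2 fell, with a median of 0.12. Cdh11, the cadherin of mesenchymal cells, read 10.50, 10.43 and 10.14 in Ind-8, 7.26 and 7.07 in tI-3 and 10.03, 9.31 and 9.35 in Con-3. It rose by 3.19 ± 0.20 (adjusted p 1.09e-05). The basement membrane linkers Nid2 and Nid1 rose by 2.29 and 1.35, Cdh13 by 1.43 and the collagen receptor subunit Itga1 by 1.11. Itgb1 and Itgav were not called. Itgb7 fell by 0.99 and Lama2 by 0.42, the latter lost without Ind-8 replicate 2 or 3 or tI-3 replicate 2 (adjusted p up to 0.203). The list had 1 fall without Ind-8 replicate 3 or tI-3 replicate 2. The block for the hybridization controls left 5 rises and 0 falls.

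In the TGF-beta and BMP pathway 12 of 34 rose, 8 of them at least 2-fold, and 2 fell, with a median of 0.15. Follistatin (Fst), a secreted inhibitor of activins, read 8.56, 8.67 and 8.80 in Ind-8, 6.85 and 6.47 in tI-3 and 6.97, 6.09 and 6.25 in Con-3. The activin subunit Inhbb read 8.46, 8.23 and 8.57 in Ind-8, 6.28 and 6.63 in tI-3 and 8.41, 7.99 and 8.43 in Con-3. They rose by 2.01 ± 0.22 and 1.97 ± 0.16 (adjusted p 0.000239 and 5.41e-05). The ligands Tgfb3 and Tgfb2 rose by 1.30 and 1.06 and the receptor Acvr1 by 0.91. Smad3, a transducer of the pathway, fell by 0.67 and the dim Nog by 0.41 (adjusted p up to 0.132 with 1 array left out), whereas Id1, Smad7 and Tgfbr2 were not called. The falls numbered 1 without any single Ind-8 or tI-3 array or Con-3 replicate 2, and 4 without Con-3 replicate 1. With the hybridization controls as a block Tgfb3, Inhbb, Ltbp2 and Fst rose.

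Other developmental pathways were mixed. Of 39 Wnt genes 8 rose and 2 fell, but the median was -0.05 (0.09 after quantile-normalizing again), near that of all profiles. The antagonist Sfrp2 rose by 1.57 ± 0.16 (adjusted p 0.000123), at 10.73, 10.38 and 10.86 in Ind-8 and 8.94 and 9.23 in tI-3. The receptor Ror2 rose by 0.69, and Axin2 and Lgr5 were not called. Of the Wnt calls only that of Sfrp2 was kept with the hybridization controls as a block. The Wnt rises numbered 4 and 3 without tI-3 replicates 1 and 2 and 5 without Ind-8 replicate 2, and the falls 0 without Ind-8 replicate 1 or 2 and 1 without tI-3 replicate 1 or 2.

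Of 19 Notch genes 7 rose and 3 fell, with a median of -0.12. Notch1 read 7.51, 7.75 and 7.69 in Ind-8, 5.88 and 6.11 in tI-3 and 6.80, 6.75 and 6.93 in Con-3, a rise of 1.66 ± 0.12 (adjusted p 1.83e-05). The ligand Dll1, near the dim end, fell by 0.58. The Notch rises numbered 4 without tI-3 replicate 1 or 2, and the falls 1 without Ind-8 replicate 1 or 2 or tI-3 replicate 2. The block left the rise of Notch1 alone. Of 13 genes of the IGF axis 4 rose and 2 fell, with a median of -0.11 (0.01 after quantile-normalizing again). Igfbp7 read 10.35, 9.83 and 9.96 in Ind-8 and 7.06 and 7.21 in tI-3, and Igfbp6 rose by 0.74, of which only Igfbp7 was called with the block. Igf1 and Igf2 were not called, and the falls in the IGF axis numbered 0 without tI-3 replicate 2 and 1 without Ind-8 replicate 1 or 2 or Con-3 replicate 2 or 3.

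Of 38 axon guidance genes 9 rose and 5 fell, with a median of 0.09. The netrin receptor Unc5b, a gene of chromosome 10, rose by 1.38, the slit receptor Robo1 by 1.20, Ephb6 by 1.13 and the semaphorin receptor Plxnd1 by 1.07. Plxnd1 read 8.53, 8.20 and 8.37 in Ind-8, 7.23 and 7.36 in tI-3 and 7.02, 7.21 and 7.22 in Con-3. The ligand Sema3e fell by 0.67. Unc5b, Robo1, Ephb6 and Sema3e lost their calls with the hybridization controls as a block (adjusted p 0.133, 0.19, 0.323 and 0.0852), which left 2 rises, Plxnd1 among them, and 0 falls. Without tI-3 replicate 2 the list had 5 rises and 1 fall, without tI-3 replicate 1 it had 1 fall and without Ind-8 replicate 2 it had 3.

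Of 25 chemokines, cytokines and their receptors 2 rose and 7 fell, with a median of -0.16 (-0.05 after quantile-normalizing again), and 8 were dim in both lines. Of all moderately dim profiles 27.0% fell and 8.36% rose. Ccl2, which attracts monocytes, read 7.66, 8.26 and 8.55 in Ind-8, 9.88 and 9.62 in tI-3 and 8.07, 8.57 and 8.53 in Con-3, a change of -1.59 ± 0.24 (adjusted p 0.00112, and 0.104 with the hybridization controls as a block). Cxcl1 fell by 0.91. Cxcr6, a chemokine receptor, read 5.35, 5.76 and 5.95 in Ind-8, 3.85 and 3.62 in tI-3 and 4.23, 4.03 and 4.21 in Con-3. Its rise of 1.95 ± 0.16 (adjusted p 5.41e-05) is likely understated, since tI-3 was below the dim end. Il6 and Cxcl12 were not called. There was 1 rise without Ind-8 replicate 1 or 2 or tI-3 replicate 1 or 2. The falls were 4 without Ind-8 replicate 1 and 3 without Ind-8 replicate 2 or tI-3 replicate 2. The block for the hybridization controls left the rise of Cxcr6 and the fall of Il1rl1.

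Of 17 innate immune and complement genes 3 rose and 6 fell, with a median of -0.17. Complement C3 read 4.66, 4.85 and 4.94 in Ind-8, 6.58 and 6.63 in tI-3 and 4.04, 4.22 and 4.21 in Con-3, a change of -1.78 ± 0.11 (adjusted p 1.05e-05). The complement protease C1ra and the NF-kappaB regulator Nfkbiz rose by 1.11 and 1.00, calls lost with the hybridization controls as a block (adjusted p 0.122 and 0.12), which left 0 rises and 2 falls in the list, C3 among them. Lipocalin 2 (Lcn2), dim in both lines, fell by 0.56. Of 34 interferon-stimulated genes 4 rose and 6 fell, with a median of -0.15 (-0.06 after quantile-normalizing again). Ifi35 and the RNA sensor Ifih1 rose by 0.92 and 0.83, Cxcl10 fell by 0.79, and Gbp2, below the dim end in Ind-8, fell by 1.07. Irf7 and Isg15 were not called. The interferon falls were 2 without tI-3 replicate 2, and the block left the calls of Ifi35, Ifih1, Cxcl10 and Gbp2.

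Heat shock genes rose in 6 of 12 cases and fell in 0 (7 and 1 at an unadjusted p under 0.05 in limma), with a median of 0.36. The small heat shock protein Hspb1 read 11.56, 11.15 and 11.24 in Ind-8, 9.39 and 9.22 in tI-3 and 9.98, 9.56 and 9.83 in Con-3, and it rose by 2.01 ± 0.15 (adjusted p 3e-05). Hspa1b rose by 1.42 (adjusted p 0.134 with the hybridization controls as a block). The rises numbered 3 without tI-3 replicate 2, and without Con-3 replicate 3 there was 1 fall. The block left the rise of Hspb1. Genes of the unfolded protein and ATF4 responses rose in 6 of 21 cases and fell in 1, with a median of 0.07. The mTOR inhibitor Ddit4 read 10.87, 10.67 and 10.36 in Ind-8, 9.42 and 9.03 in tI-3 and 9.06, 9.35 and 9.12 in Con-3. The transcription factor Atf3 rose by 0.58, the serine synthesis enzyme Psat1 fell by 0.41 (adjusted p up to 0.126 with 1 array left out), and Atf4, Ddit3 and Hspa5 were not called. Without tI-3 replicate 2 there were 2 rises in this list, and the fall was lost without tI-3 replicate 1 or 2 or Ind-8 replicate 1 or 2. Only Ddit4 was called with the block.

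Antioxidant and detoxification genes rose in 6 of 24 cases and fell in 3, with a median of -0.02. Gpx3, the secreted glutathione peroxidase, read 6.69, 6.67 and 6.79 in Ind-8 and 5.99 and 5.36 in tI-3 and rose by 1.04. Haem oxygenase (Hmox1) read 11.77, 11.66 and 10.98 in Ind-8, 10.24 and 10.04 in tI-3 and 9.54, 9.11 and 8.98 in Con-3. It rose by 1.33 ± 0.23 (adjusted p 0.00233, and 0.19 with the hybridization controls as a block). Ephx1 rose by 1.46 and Cbr1 by 0.97, whereas Nqo1, Gclc and Sod1 were not called. The antioxidant falls were 5 without Ind-8 replicate 2, and with the block Gpx3 and Cbr1 rose and 1 gene fell.

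Of 8 zinc-responsive genes 0 rose and 2 fell (1 and 3 at an unadjusted p under 0.05 in limma), with a median of -0.03. The transporters Slc30a4 and Slc39a10 fell by 0.49 and 0.46 (adjusted p up to 0.118 and 0.12 with 1 array left out), and Slc30a1 and Mtf1 were not called. The zinc falls numbered 0 without Ind-8 replicate 1 or tI-3 replicate 2, and 1 without Ind-8 replicate 3 or tI-3 replicate 1. No zinc gene was called with the block. Of 11 genes of iron handling 1 rose and 2 fell, with a median of -0.19. The ferroxidase ceruloplasmin (Cp), a gene of chromosome 3, read 4.79, 5.14 and 4.77 in Ind-8, 6.82 and 6.62 in tI-3 and 4.67, 4.28 and 4.35 in Con-3, a change of -1.82 ± 0.15 (adjusted p 5.41e-05). Aco1 rose by 0.34, a call lost without any single Ind-8 or tI-3 array or Con-3 replicate 2 (adjusted p up to 0.223), and Fth1 and Slc40a1 were not called. Without Ind-8 replicate 2 there were 4 falls in this list, and with the block Cp alone.

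Enzymes of cholesterol and fatty acid synthesis rose in 20 of 28 cases and fell in 0 (22 and 1 at an unadjusted p under 0.05 in limma), with a median of 0.60 (0.44 after quantile-normalizing again). Cyp51, which demethylates lanosterol, read 10.36, 10.27 and 10.45 in Ind-8, 9.53 and 9.55 in tI-3 and 10.42, 10.31 and 10.30 in Con-3. tI-3 was low without overlap, and the change was 0.83 ± 0.10 (adjusted p 0.000307). Tm7sf2, the sterol reductase, read 7.85, 8.51 and 8.26 in Ind-8 and 6.90 and 6.65 in tI-3, and its rise of 1.44 was the 1 change of at least 2-fold. Squalene epoxidase (Sqle) rose by 0.58 and the desaturase Scd1 by 0.93. The regulator Srebf1 rose by 0.62, while Srebf2 and Fasn were not called.

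The rises of this list numbered 10 without tI-3 replicate 1 and 3 with the hybridization controls as a block (Cyp51, Tm7sf2 and Scd1). There was 1 fall without Ind-8 replicate 3 and 1 after quantile-normalizing again. A CCAAT box (CCAAT or ATTGG) was present within 250 bases before the start of 17 of 20 genes of cholesterol and fatty acid synthesis (85.0%), against 37.5% of all genes and 8 of 9 lamina genes (88.9%). The promoter of Cyp51 in RefSeq GRCm38.p6 (chr5:4104698-4104947, minus strand) holds 1, in capitals.
Cyp51: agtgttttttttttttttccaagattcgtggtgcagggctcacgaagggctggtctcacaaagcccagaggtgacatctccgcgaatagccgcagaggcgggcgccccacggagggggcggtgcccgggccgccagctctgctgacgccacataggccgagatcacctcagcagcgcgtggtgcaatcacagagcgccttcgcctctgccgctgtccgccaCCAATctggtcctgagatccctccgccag

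Of 21 genes of glycolysis and the hypoxia response 4 rose and 0 fell (7 and 1 at an unadjusted p under 0.05 in limma), and the median was 0.16. Hexokinase 2 (Hk2) rose by 0.65, and Vegfa, Pkm and Pdk1 were not called. The rises in glycolysis numbered 2 without Ind-8 replicate 1 and 1 without tI-3 replicate 2. Of 28 respiratory chain subunits 1 rose and 3 fell, with a median of -0.03. The ATP synthase subunit Atp5a1 read 11.82, 11.92 and 11.97 in Ind-8, 12.72 and 12.59 in tI-3 and 12.25, 12.35 and 12.39 in Con-3, and it fell by 0.75 ± 0.10 (adjusted p 0.00056, and 0.0669 with the hybridization controls as a block). The respiratory falls numbered 1 without Ind-8 replicate 1 or tI-3 replicate 1 or 2, and without tI-3 replicate 2 the rise was lost. The block left no call in glycolysis or the respiratory chain.

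Of 29 lysosomal genes 7 rose and 1 fell, with a median of 0.19 (0.02 after quantile-normalizing again). The proton pump subunit Atp6v0d1 read 11.22, 11.15 and 10.91 in Ind-8, 10.29 and 10.06 in tI-3 and 10.21, 10.12 and 10.02 in Con-3, a rise of 0.91 ± 0.12 (adjusted p 0.000629). The cholesterol exporter Npc1 fell by 0.91. With the hybridization controls as a block Atp6v0d1 and Npc1 lost their calls (adjusted p 0.0813 and 0.117), and no lysosomal gene was called. Lamp1, Ctsb and Tfeb were called in neither fit. Lysosomal rises numbered 4 without Ind-8 replicate 1, 3 without Ind-8 replicate 2 and 1 without tI-3 replicate 2, and after quantile-normalizing again 4 rose and 5 fell. Of 15 amino acid transporters 3 rose and 2 fell, with a median of 0.06. Slc38a4 rose by 3.81 ± 0.14 (adjusted p 2.16e-07), whereas its relative Slc38a1 fell by 0.62. Transporter rises numbered 1 without Ind-8 replicate 1 or 3 or tI-3 replicate 1 or 2, and there was 1 fall without tI-3 replicate 1. The block left the rise of Slc38a4.

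Growth-response factors rose in 10 of 25 cases and fell in 3, with a median of 0.38. The nuclear receptor Nr4a1 read 9.27, 9.84 and 9.42 in Ind-8, 8.44 and 8.39 in tI-3 and a mean of 7.88 in Con-3, a rise of 1.10 ± 0.16 (adjusted p 0.00084, and 0.0981 with the hybridization controls as a block). Fos varied within both lines, at 8.28, 9.47 and 9.28 in Ind-8 and 7.82 and 6.70 in tI-3, and its rise of 1.75 was not called without tI-3 replicate 2 (adjusted p 0.0789). The AP-1 subunit Fosl1 fell by 0.90 (adjusted p 0.0628 without tI-3 replicate 1), and Egr1, Myc and Junb were not called. Without tI-3 replicate 2 the list had 2 rises, and without tI-3 replicate 1 it had 1 fall. The block for the hybridization controls left no rise and the fall of Fosl2, which without the block was lost without tI-3 replicate 2 (adjusted p 0.0684).

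Of 10 lamina genes 2 rose and 4 fell, with a median of -0.21. Lamin B1 (Lmnb1) fell by 1.44, and Banf1, which binds DNA at the nuclear envelope, read 11.94, 11.83 and 11.91 in Ind-8, 12.74 and 12.61 in tI-3 and 12.59, 12.58 and 12.64 in Con-3. Lamina falls numbered 2 without tI-3 replicate 1 or 2, and the rises 1 and 0 without tI-3 replicates 1 and 2. Lmnb1 and Banf1 were the calls left by the block. Of 17 histone variants and chromatin genes 0 rose and 5 fell (0 and 6 at an unadjusted p under 0.05 in limma), and the median was also -0.21. The heterochromatin protein Cbx5 fell by 0.67 ± 0.10 (adjusted p 0.00137, and 0.078 with the hybridization controls as a block, which left no call in the list), and Dnmt1 and Uhrf1 were not called. The chromatin falls were 1 and 2 without tI-3 replicates 1 and 2 and 3 without Ind-8 replicate 2.

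Of 28 Hox genes 3 rose and 6 fell, with a median of -0.16. Hoxa9 read 7.93, 8.05 and 8.14 in Ind-8, 8.88 and 8.82 in tI-3 and 8.52, 8.64 and 8.72 in Con-3, and Hoxc6 fell by 0.87. Without tI-3 replicate 2 there was 1 Hox rise, and with the hybridization controls as a block 1 rise and 0 falls. Of 14 imprinted genes 1 rose and 4 fell, with a median of -0.16, and Igf2 was not called. The imprinted falls were 2 without tI-3 replicate 1 and 0 without tI-3 replicate 2, which also lost the rise, of Igf2r by 0.58 (adjusted p 0.0542), and the block left no imprinted gene called. Of 28 genes of ribosome biogenesis 3 rose and 2 fell, with a median of 0.11, and after quantile-normalizing again 0 rose and 5 fell, with a median of -0.01. Ncl and Ubtf were not called, nor was any ribosome gene with the block. The ribosome rises numbered 7 without Ind-8 replicate 2, 1 without Ind-8 replicate 1 and 0 without tI-3 replicate 2. The ribosome falls numbered 0 without tI-3 replicate 2 and 1 without tI-3 replicate 1, any single Ind-8 array or Con-3 replicate 2.

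The genes that changed were spread unevenly over the chromosomes, a pattern looked at after the largest falls had been seen. RefSeq of GRCm38.p6 placed 15528 genes on 20 chromosomes, and the median change over them was -0.04. On chromosome 18 the median of 379 genes was -0.27, 155 fell (40.9%) and 20 rose. On chromosome 10 the median of 723 genes was 0.18 and 270 rose (37.3%), 57 of them at least 2-fold against 0 falls of that size. With the hybridization controls as a block, 35 rises and 1 fall there were at least 2-fold. On chromosome 3 the median was -0.12 and 159 of 773 genes fell (20.6%), a share that chromosome 19 exceeded, with 120 of 549 (21.9%) and a median of -0.10. The medians of the other chromosomes lay between -0.10 and 0.04.

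Of the 80 genes at least 2-fold lower in Ind-8, 40 lay on chromosomes 3 and 18 (50.0%), which hold 7.41% of the genes. Against the Ind-8 mean, the median of chromosome 18 was 0.29 and 0.28 on the tI-3 arrays and 0.15, 0.17 and 0.17 on the Con-3 arrays, and that of chromosome 10 was -0.17 and -0.20 on the tI-3 arrays. Over the alternatives the median of chromosome 18 ranged from -0.37 to -0.21, that of chromosome 10 from 0.14 to 0.32 and that of chromosome 3 from -0.16 to -0.09. Called genes named above lie there too: Mdm2, Apaf1, Sesn1, Ccn2, P4ha1, Ddit4, Akap12 and Unc5b on chromosome 10, Cp, Fabp4, Gbp2, Gmps, Ccna2, Sfrp2 and Col11a1 on chromosome 3, and Lmnb1, Atp5a1, Npc1 and Csf1r on chromosome 18. Perp, Lama2 and S100b, which fell, also lie on chromosome 10, and on chromosome 3 Sfrp2 and Col11a1 rose. Cdkn1a, Actg2, Cnn1, Tmem176b and Kif11 lie on none of the 3. The number of copies of each chromosome in the lines was not measured on these arrays.

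**Figure D5:**
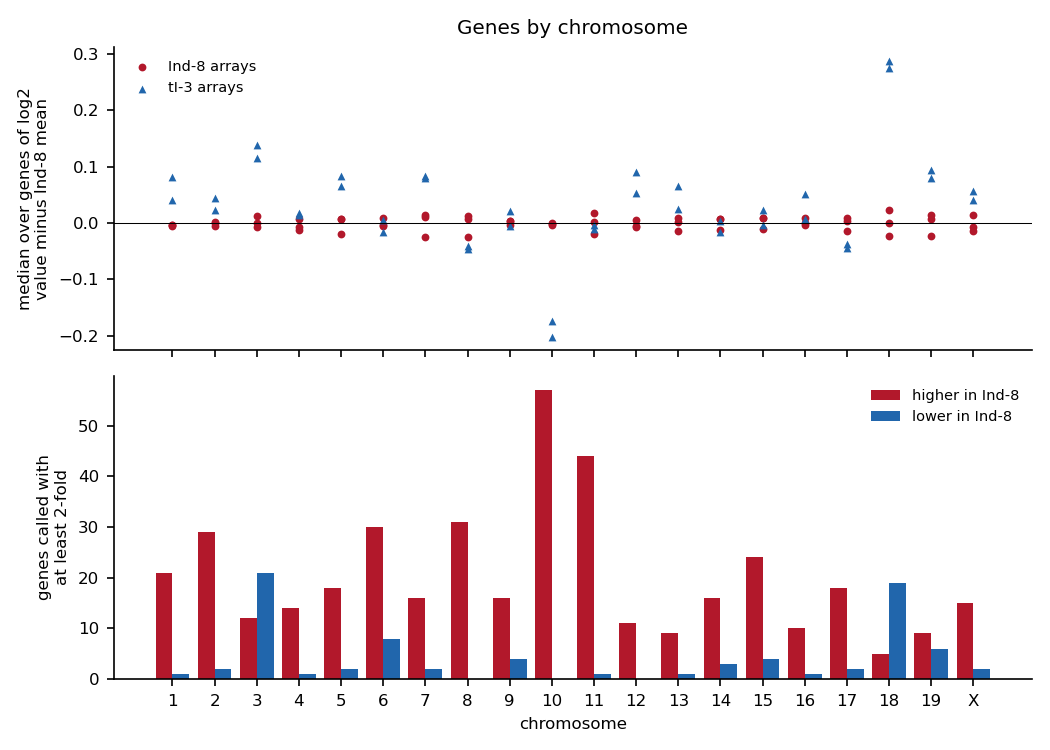
Top, median log2 value of the genes of each chromosome on each array minus the Ind-8 mean; bottom, number of genes at least 2-fold higher or lower in Ind-8 by chromosome. Chromosome 18 stands at 0.29 and 0.28 on the tI-3 arrays, and 57 genes of chromosome 10 are at least 2-fold higher.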

How the data were processed

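Total RNA of 3 Ind-8, 3 Con-3 and 2 tI-3 cultures was measured on 8 Affymetrix mouse arrays, which the labels call biological replicates and the methods independent preparations. The authors applied RMA, of no stated version, after regrouping the probes into sets by RefSeq transcript, and deposited log2 values. They were used without further normalization. Arrays have no depth, so the precision is limited by how many there are.

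Of 22587 probe sets, 64 controls were left out and the remaining 22523 were reduced to 18172 distinct profiles, since 7328 probe sets share all their values with another to 6 decimals. A table of RefSeq genes of GRCm38.p6 gave names, chromosomes and the 250 bases before each transcript start. It matched 18294 probe sets (81.2%). Of the profiles, 16079 carry 1 gene (15540 genes in all), 26 several and 2067 none. The dim end was set at 4.29, the 25th percentile of the profile means. The genome build behind the probe sets is not stated.

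A linear model of the 3 lines on all 8 arrays was fitted with limma 3.58.1 (R 4.3.3), and its contrast was Ind-8 minus tI-3. A profile was called at a Benjamini-Hochberg adjusted p under 0.05, two-sided, and counted again with a change of at least 2-fold. Tables and figures were made in Python 3.11.15 with numpy 2.4.6, pandas 2.3.3 and matplotlib 3.10.9. The methods' RankProd test was re-implemented as an alternative, with 100 permutations and a pfp under 0.05.

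The members of 34 gene lists (863 genes, of which 812 were found) and 11 marker lists were chosen with earlier results of these data known, so no list was tested and each is described by counts and a median, to be read beside those of all profiles. Named genes are those that check the labels, the 15 largest rises and 15 largest falls among called genes whose lines do not overlap, up to 4 members per list with the largest called change, members that a sentence on a role counts, and in each marker list the most abundant member and called members changed at least 2-fold. Some members named as examples or as not called fall outside this rule and were chosen after their values were seen. Some members are withheld for evaluation and are not reported here.

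The alternatives were a block by replicate number, limma on the 5 compared arrays only, with a trend in the prior, without dim profiles, with every probe set counted, with 1 profile per gene, with arrays median-centred or quantile-normalized again, with a block for the hybridization controls (level above or below the middle of its range), and each array left out in turn. The medians by chromosome were chosen after seeing the data. The methods were tested on simulated data. The other experiments of the study were not analysed here.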

Additional observations from a re-analysis of the deposited data

Results flagged for a closer look

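The hybridization controls, which are outside the comparison of genes, averaged 10.35 on the tI-3 arrays and 9.91 on the Ind-8 arrays, a difference of 0.45 on the log2 scale. It drew attention because all tI-3 arrays lay above all Ind-8 arrays in a signal that does not come from the cells. Its part in the gene changes was not tested beyond the fit that takes this level as a block.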

How the results depend on the processing

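Against 2893 rises and 2691 falls, 433 and 107 of them at least 2-fold, most alternatives left the counts within 1.5 times. The direction of the estimate turned for 22 called profiles with a block for the hybridization controls, 1 of them among the 433, and for 1 after quantile-normalizing again. With a block for the hybridization controls 416 rose and 167 fell, 271 and 104 of them at least 2-fold, of which 217 and 70 are among the 433 and 107. That fit spends 1 degree of freedom on a class that holds both tI-3 arrays and no Ind-8 array. Its contrast borrows the class effect from the Con-3 arrays, which makes its SE larger by design. A call lost there therefore need not mean a smaller change, and the cause of each loss was not tested. The re-implemented rank product test called 297 rises and 81 falls, of which 294 and 81 were at least 2-fold calls of limma. With 1 array left out in turn, the rises ranged from 1458 to 2988, the falls from 887 to 2828, the at least 2-fold rises from 372 to 504 and the at least 2-fold falls from 104 to 143. Where 1 tI-3 array is left, it is assumed to vary like the arrays of the other lines.

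With the replicate number as a block there were 3233 rises and 3371 falls, 481 and 111 of them at least 2-fold. Whether the numbers pair samples could not be decided. Deviations from the line mean in arrays of the same number correlated across profiles at 0.256, 0.024 and 0.367 between Ind-8 and Con-3. Arrays of different numbers in these lines gave -0.401 to 0.127. Same-number values were 0.02 and -0.232 between Ind-8 and tI-3 and 0.215 and 0.019 between Con-3 and tI-3. The deviations of the 2 tI-3 arrays mirror each other, so these values cannot show pairing. Quantile-normalizing again gave 366 and 160 changes of at least 2-fold. Of the 433 rises 335 were at least 2-fold there, and of the 107 falls 98. The medians of chromosomes 3, 10 and 18, chosen after seeing the data, kept their sign in all alternatives run, as did those of 5 other chromosomes. Medians of the purine, G1, ribosome, Wnt, IGF, protease and antioxidant lists, all near 0, changed sign after quantile-normalizing again. Changes of profiles below the dim end of 4.29 are limited by the signal over background, and large ones are likely understated. Small falls there depend on the processing. In the dimmest of 4 bins of like size 491 profiles fell and 42 rose. After quantile-normalizing again 73 fell and 94 rose in that bin.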
